A study of Mus musculus with 3 samples.

Results

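The genes described here are those that build, load and regulate the major histocompatibility complex (MHC): every gene of the deposited table whose symbol begins with H2-, together with B2m, Tap1, Tap2, Tapbp, Tapbpl, Psmb8, Psmb9, Psmb10, Psme1, Psme2, Nlrc5, Ciita, Cd74, Erap1 and Cd1d1. The rule used symbols alone and no measured value. It found 65 genes of the 46095 in the table. Of these, 15 had a summed count of 20 or more over the 3 libraries and were compared, 12 had 1 to 19 counts and 38 had no count. The member nearest the limit on the inside was H2-T23 with 39 counts, and the nearest on the outside were Tap2 with 15 and H2-T10 with 12.

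The cells were OCCM-30, an immortalised wild-type mouse cementoblast line, the cell type that lays down the mineralised cementum of the tooth root. Total RNA was sequenced from cells without cementogenic differentiation (day 0) and from cells kept for 7 or 14 days in cementogenic medium, with 1 library for each time. The line is a single cell line with no separate cultures labelled, so no difference between days could be checked against replicates and p-values are left out. Time in culture and the induction cannot be told apart. The libraries held 13224690, 14034518 and 14439666 counts on day 0, 7 and 14. All 7 cementoblast and osteoblast markers examined were compared. By day 7, 4 rose (57.1%, against 12.1% of all compared genes), and by day 14, 5 rose (71.4%, against 9.60%). Alpl, Bglap, Ibsp and Sp7 were called higher on both days and Runx2 on day 14 alone. Col1a1 and Spp1 were called on neither day.

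MHC class I molecules are cell surface proteins made of a heavy chain and the light chain beta-2 microglobulin, and they show short peptides from inside the cell to CD8+ T cells and natural killer cells. The peptides are cut by the proteasome, pumped into the endoplasmic reticulum by the TAP transporter, trimmed by the aminopeptidase ERAP1 and exchanged on the heavy chain by the chaperones tapasin and TAPBPR. MHC class II molecules show peptides from endosomes and are made mainly by professional antigen presenting cells, with the invariant chain as their chaperone. NLRC5 is the transcriptional activator of class I genes and CIITA that of class II genes, and interferon gamma induces much of the pathway.

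Beta-2 microglobulin and Nlrc5 rose over 14 days in cementogenic medium, while some of the genes that supply and edit class I peptides, and the invariant chain gene Cd74, fell. B2m went from 203 to 429 CPM and Nlrc5 from 11.1 to 22.5 CPM between day 0 and day 14. Erap1, Psmb10, Psme2, Tapbpl and Cd74 fell by day 7, Erap1 furthest, from 60.2 to 11.5 CPM. The level of each of these 5 was greater on day 14 than on day 7, with no ratio past the rule and an interval that included 1 for Tapbpl. Erap1, Tapbpl and Cd74 were still called lower than on day 0, and Psmb10 and Psme2 no longer were. CPM is the library-size-scaled count after TMM scaling, and a gene is said to have risen or fallen where its ratio was at least 2-fold and the exact 95% interval of the ratio excluded 1. The intervals, given in brackets, hold the error of counting alone. Reads that carry no molecular identifier are not independent molecules.

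**Figure D1:**
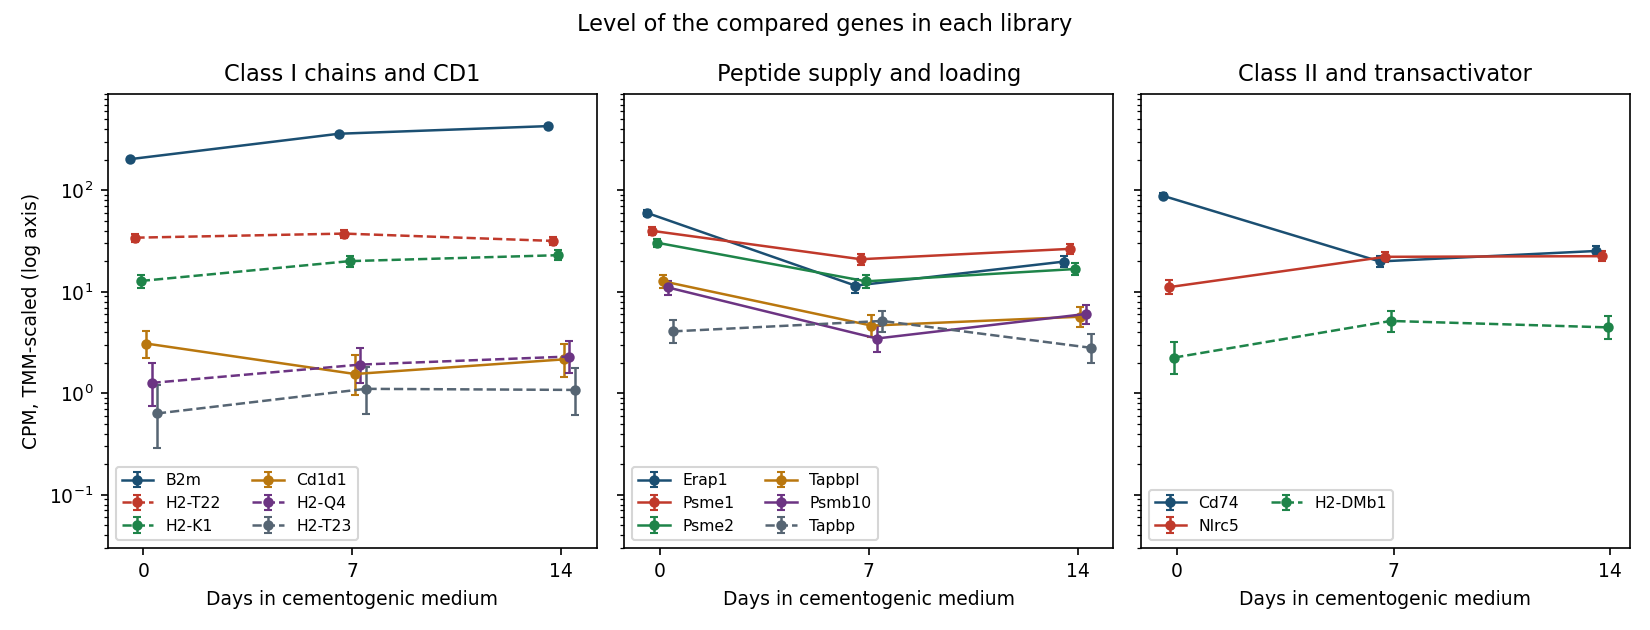
Level of the 15 compared genes in each library, as TMM-scaled CPM on a log axis against days in cementogenic medium (0, 7 and 14). Each point is 1 library, bars are exact 95% counting intervals, solid lines are genes listed on primary chromosomes and dashed lines genes listed on scaffolds. B2m stands highest at every time, and the solid lines of the peptide supply panel dip at day 7.

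Where a gene was listed in the authors' table decided how far its count could be read. The MHC genes of the mouse lie together on chromosome 17, but 48 of the 65 genes were listed on scaffolds outside the primary chromosomes, 29 of them on a single scaffold and 16 on another. Of the 43 that also had a GENCODE span, 37 were listed with a span over 2 times as long, whereas 1 of 16 on primary chromosomes was. With the members left out, 55.1% of 89 protein-coding genes on the scaffold with most members had no count. The share was 42.4% of 59 on the second, against 30.1% of 21085 on primary chromosomes. Several neighbours, picked after their values were seen because nearly every cell makes them, were at or near 0: Bag6, Clic1 and Ddx39b had no count, and Brd2 had 5, 9 and 2 counts on day 0, 7 and 14. The ribosomal protein gene Rps18 had 114, 93 and 139 counts there, where 82 ribosomal protein genes on primary chromosomes had medians of 1130, 965.5 and 973.5. Gnl1, on the second scaffold, had 1007, 704 and 677 counts, so low counts were not general there. A gene of these scaffolds without a count is therefore described as listed at 0, and no absence is read from it.

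**Figure D2:**
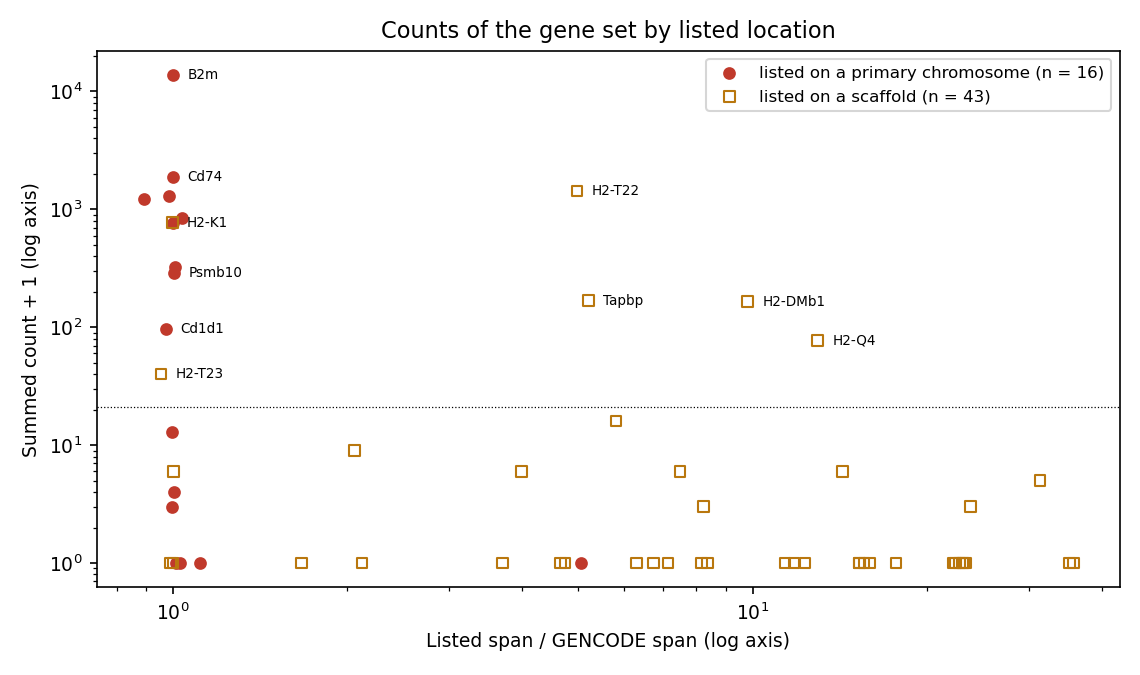
Summed count of each gene over the 3 libraries plus 1 (log axis) against the ratio of its listed span to its GENCODE span (log axis), for the 16 genes on primary chromosomes and 43 on scaffolds that have a GENCODE span. The dotted line is the minimum of 20 counts for a comparison, and some compared genes are labelled. Of the scaffold genes, 37 lie beyond a ratio of 2, and 4 of these reach the line.

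On day 7 against day 0, 1 of the 15 compared genes was higher (H2-DMb1) and 5 were lower (Cd74, Erap1, Psmb10, Psme2 and Tapbpl). Of all 15534 genes compared, 12.1% were higher and 10.9% lower in that comparison, so the members called higher were 6.67% against 12.1% and those called lower 33.3% against 10.9%. The median log2 ratio of the 15 genes was 0.13, against 0.008 over all genes. All 5 called lower were among the 9 genes on primary chromosomes, whose median log2 ratio was -1.23. The 6 genes on scaffolds, H2-DMb1 among them, had a median of 0.48.

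On day 14 against day 0, 2 genes were higher (B2m and Nlrc5) and 3 lower (Cd74, Erap1 and Tapbpl), all 5 on primary chromosomes. Over all genes 9.60% were higher and 7.59% lower, against 13.3% and 20% of the 15. The median log2 ratio was -0.43, against 0.001 over all genes. Both comparisons use the same day 0 library, so their ratios are not independent. Between day 7 and day 14 no member was called in either direction, where 2.93% of all genes were higher and 2.20% lower, and the median log2 ratio was 0.25 against 0.0 over all genes. With no replicates, no unadjusted p-value stands behind that count of 0, and DESeq2 size factors and deposited FPKM also gave 0 in both directions.

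**Figure D3:**
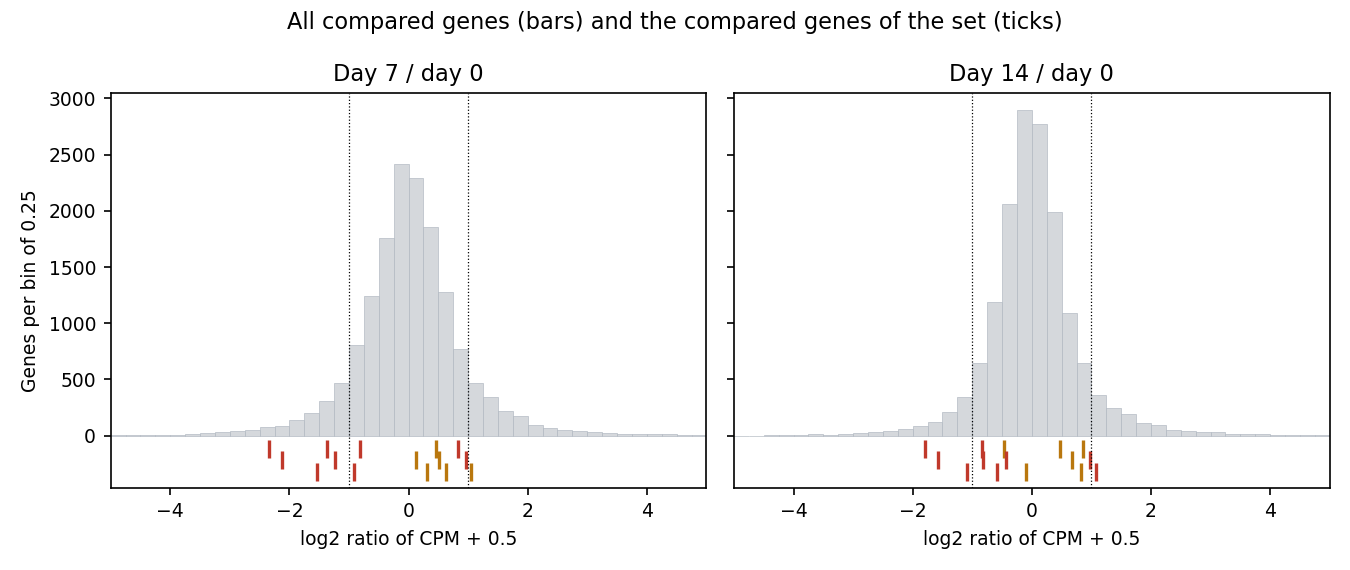
Histogram of the log2 ratio of CPM + 0.5 over all 15534 compared genes (bars, genes per bin of 0.25) on day 7 and day 14 against day 0, with the 15 compared genes as ticks below, red for primary chromosomes and ochre for scaffolds. Dotted lines mark 2-fold. On day 7 the 5 leftmost red ticks lie beyond the lower dotted line.

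The class I light chain was the most abundant member. B2m (mm10 chr2:122147687-122153082, plus strand) had 2887 counts on day 0, 4896 on day 7 and 5965 on day 14. It stood 1.78-fold higher on day 7 (95% counting interval 1.70 to 1.86), short of the 2-fold rule, and rose 2.12-fold (2.02 to 2.21) by day 14. The count was lowest on day 0 and highest on day 14, and day 14 exceeded day 7 by 1.19-fold (1.14 to 1.23). Scaled by total counts alone, the day 14 log2 ratio was 0.92 in place of 1.08 and B2m was not called. No 50-base window of its transcripts occurred in another gene.

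The heavy chains carry the peptide groove. Of 30 heavy chain genes, 4 were compared, 5 had 1 to 19 counts and 21 were listed at 0. H2-K1, a classical and highly polymorphic heavy chain, had 182, 272 and 319 counts on day 0, 7 and 14. It stood 1.57-fold higher on day 7 (1.30 to 1.90) and 1.79-fold higher on day 14 (1.49 to 2.17), both intervals above 1 and both ratios under the 2-fold rule. H2-D1, the other classical heavy chain of this mouse reference, was listed at 0 in the 3 libraries. It sits on the same scaffold as Bag6, Clic1 and Ddx39b, and nothing is read from it.

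H2-T22, a non-classical heavy chain known as a ligand of gamma delta T cells, had 486, 508 and 441 counts. Its ratio to day 0 was 1.10 on day 7 (0.967 to 1.24) and 0.929 on day 14 (0.815 to 1.06), and both intervals included 1. H2-Q4, a Qb-1 heavy chain, had 18, 26 and 32 counts. H2-T23, the Qa-1 heavy chain that binds the inhibitory receptor NKG2A, had 9, 15 and 15. Their ratios on day 14 were 1.82 (0.992 to 3.44) and 1.71 (0.700 to 4.42), and both intervals included 1 and ratios past 2.

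Near-identical copies limit what single heavy chains can show. Of the 50-base windows of H2-T22, 34.5% occurred in another gene, mostly H2-T10, and the shares were 21.8% for H2-Q4, 13.6% for H2-T23 and 9.63% for H2-K1. The 30 heavy chains together had 713, 826 and 816 counts, or 50.1 CPM (46.5 to 53.9), 60.9 CPM (56.8 to 65.2) and 58.7 CPM (54.8 to 62.9). The sum stood 1.22-fold higher on day 7 (1.10 to 1.35) and 1.17-fold on day 14 (1.06 to 1.30). Leaving out H2-T22, which made up most of it, the sum was 227, 318 and 375 counts, 1.69-fold higher on day 14 (1.43 to 2.004). The sum of H2-T22 and H2-T10, which pools the reads of that pair, was 494, 510 and 443 counts.

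Per unit of length, B2m stood above H2-K1 and H2-T22, the heavy chains with the most counts. The deposited FPKM of B2m was 254, 407 and 481 on day 0, 7 and 14, and that of H2-K1 was 6.45, 9.09 and 10.36, while H2-T22 had 10.49, 10.33 and 8.72. No comparison is made with heavy chains listed at 0. The deposited FPKM of H2-K1 did not equal its count divided by listed length and library total, unlike 98.8% to 98.9% of detected genes, and its level is uncertain for that reason and for the scaffold.

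The upstream sequences of B2m, H2-K1 and H2-T22 are shown because interferon-stimulated response elements (ISRE) and kappaB sites in class I promoters are textbook control elements of this pathway. They are RefSeq promoter sequences of build GRCm38.p6, from 220 bases before the start site to 25 after it, at chr2:122147467-122147711 (plus strand), chr17:34000323-34000567 (minus) and chr17:36042718-36042962 (minus). Each is written 5' to 3' on the gene's strand. Capitals mark matches to an ISRE core, GAAANNGAAA, or a kappaB pattern, GGGANNNNCC, on either strand.
B2m: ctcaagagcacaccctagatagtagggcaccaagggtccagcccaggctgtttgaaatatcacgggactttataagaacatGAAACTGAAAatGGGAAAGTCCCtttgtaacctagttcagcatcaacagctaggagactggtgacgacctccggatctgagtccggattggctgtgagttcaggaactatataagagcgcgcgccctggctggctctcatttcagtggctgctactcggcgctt
H2-K1: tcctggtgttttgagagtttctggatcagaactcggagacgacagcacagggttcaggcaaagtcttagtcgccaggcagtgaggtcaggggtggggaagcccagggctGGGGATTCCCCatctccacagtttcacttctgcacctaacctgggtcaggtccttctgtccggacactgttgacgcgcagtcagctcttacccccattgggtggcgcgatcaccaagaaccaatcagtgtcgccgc
H2-T22: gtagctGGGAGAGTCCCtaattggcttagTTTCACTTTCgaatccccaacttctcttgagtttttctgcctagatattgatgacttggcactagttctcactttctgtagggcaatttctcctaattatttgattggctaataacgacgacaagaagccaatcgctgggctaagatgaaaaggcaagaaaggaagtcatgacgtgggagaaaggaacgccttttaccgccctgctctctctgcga

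In B2m an ISRE core began 139 bases before the start site and overlapping kappaB matches began at 127 and 126 bases before it. H2-T22 held both patterns, with the ISRE core on the opposite strand. H2-K1 held overlapping kappaB matches and no exact match to the ISRE core in this window. RefSeq promoters were matched for 11 of the 15 compared genes, and Cd1d1, Cd74, Nlrc5 and Tapbpl were not among them. The ISRE core was in 5 of the 11 (B2m, Erap1, H2-T22, H2-T23 and Psme1), against 3.44% of 32851 promoters. For each pattern a gene was counted if any of its promoters matched, whereas the background is a share of single promoters, so the units differ. The kappaB pattern was in 4 (B2m, H2-K1, H2-Q4 and H2-T22), against 20.7% of promoters, and the CCAAT box in 7, against 37.4%. The interferon gamma activated site TTCNNNGAA was in 0 of 11, against 8.3% of promoters. A match is a description of letters and not a bound site, and the lack of an exact match does not show that a site is absent.

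The ISRE cores of Erap1, Psme1 and H2-T23 are shown with 10 bases on each side, because the first of these genes fell, Psme1 was lower and short of the 2-fold rule, and H2-T23 was not called. They lie at chr13:74639839-74639868 (plus strand), chr14:55578493-55578522 (plus) and chr17:36032806-36032835 (minus), and capitals mark the core, read here on the opposite strand.
Erap1: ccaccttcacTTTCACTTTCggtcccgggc
Psme1: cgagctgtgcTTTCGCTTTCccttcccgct
H2-T23: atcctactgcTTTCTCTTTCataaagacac

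A match to the ISRE core stood in B2m, which rose by day 14, and in Erap1, which fell. Whether the pattern had a part in either change was not tested. The RefSeq start site used for Erap1 lies downstream of the start listed in the authors' table.

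Peptide supply starts at the proteasome. Psmb10 (chr8:105935728-105938454, minus strand), the immunoproteasome subunit that replaces the trypsin-like subunit Psmb7, had 157, 47 and 84 counts on day 0, 7 and 14. It fell 3.18-fold by day 7 (2.28 to 4.51) and stood 1.83-fold lower on day 14 (1.39 to 2.41), back under the 2-fold rule. Its count on day 14 lay between the other two, 1.74-fold above day 7 (1.21 to 2.55). Psmb8 and Psmb9, the other immunoproteasome subunits, were listed at 0 on the scaffold with most members.

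Psme1 and Psme2 encode the alpha and beta subunits of PA28, the interferon-inducible proteasome activator. Psme2 (chr14:55587440-55591240, minus strand) had 433, 172 and 233 counts, fell 2.40-fold by day 7 (2.01 to 2.88) and stood 1.81-fold lower on day 14 (1.54 to 2.14). Psme1 (chr14:55578494-55581527, plus strand) had 568, 284 and 368 counts and stood 1.91-fold lower on day 7 (1.65 to 2.21) and 1.51-fold lower on day 14 (1.32 to 1.72), short of the rule on both days. For both subunits day 0 was highest and day 7 lowest. Psme2b, which shares 28.3% of the windows of Psme2, had 160, 83 and 65 counts, and the sum of the pair was 593, 255 and 298 counts, 2.22-fold lower on day 7 (1.91 to 2.58).

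Erap1 (chr13:74639624-74692537, plus strand), the aminopeptidase that trims peptides to the length class I binds, had 856 counts on day 0, 156 on day 7 and 276 on day 14. It fell 5.23-fold by day 7 (4.40 to 6.24), the largest fold of the 15 genes, and was 3.03-fold lower on day 14 (2.64 to 3.48). Day 14 stood 1.73-fold above day 7 (1.41 to 2.11). Of its 7280 exonic bases, 834 overlap exons of Cast on the opposite strand, and whether the counting used strand is not stated here. Cast had 1676, 1392 and 1549 counts, with ratios to day 0 of 0.872 and 0.947.

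Tapbpl (chr6:125223927-125231923, minus strand) encodes TAPBPR, a peptide editor related to tapasin. It had 181, 63 and 79 counts, fell 2.74-fold by day 7 (2.04 to 3.71) and was 2.24-fold lower on day 14 (1.71 to 2.95). Day 0 was the high library, and the ratio of day 14 to day 7, 1.22 (0.868 to 1.73), included 1.

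Tapbp, tapasin itself, had 58, 70 and 39 counts on a scaffold, with ratios to day 0 of 1.27 (0.882 to 1.83) and 0.689 (0.447 to 1.05). Its day 14 level was 1.84-fold under day 7 (1.23 to 2.80), and its exons overlap 904 bases of Gm19412 on the opposite strand. Tap2 had 9, 3 and 3 counts and Tap1 0, 2 and 3, also on a scaffold. The transporter was therefore not measurable here.

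Psmb10, Psme1, Psme2, Erap1 and Tapbpl, grouped after their values were seen, had 2195, 722 and 1040 counts together. Tapbp, with 58, 70 and 39 counts, was left out of the group. That is 154, 53.3 and 74.9 CPM, with day 7 lower by 2.90-fold (2.66 to 3.16) and day 14 by 2.06-fold (1.91 to 2.22). Set against the light chain within each library, which needs no scaling between libraries, there were 76.0 such counts per 100 B2m counts on day 0, 14.75 on day 7 and 17.4 on day 14.

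**Figure D4:**
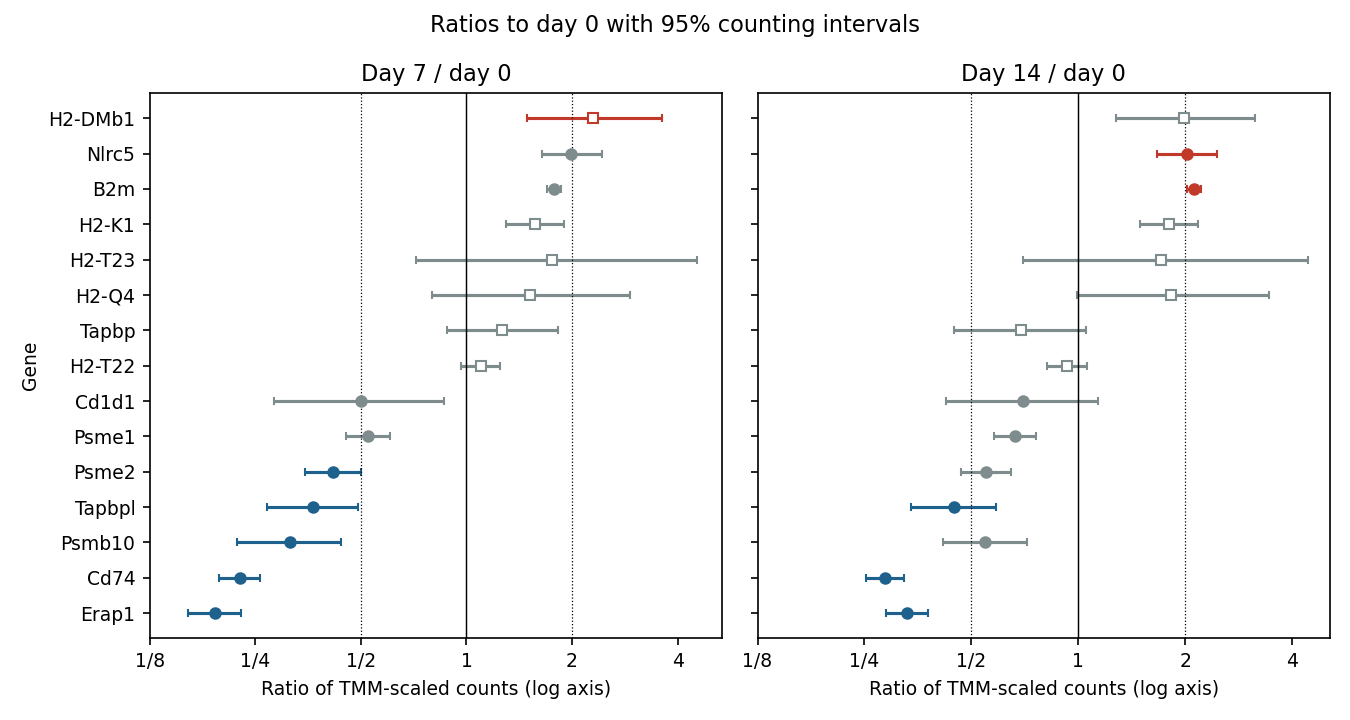
Ratio of scaled counts to day 0 for the 15 compared genes, on a log axis, with exact 95% counting intervals; circles are genes on primary chromosomes and open squares genes on scaffolds. Red is called higher, blue called lower and grey not called. Erap1 and Cd74 lie lowest on day 7, at 5.23-fold and 4.44-fold lower, and B2m and Nlrc5 are the members called higher on day 14.

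Nlrc5 (chr8:94434354-94527272, plus strand), the class I transactivator, had 158, 300 and 312 counts. It stood 1.99-fold higher on day 7 (1.64 to 2.43), just short of the rule, and 2.02-fold higher on day 14 (1.66 to 2.46), just past it. With total counts alone the day 14 log2 ratio was 0.83 in place of 0.98 and Nlrc5 was not called. Day 7 and day 14 lay close together, at a ratio of 1.01 (0.863 to 1.19). Ciita, the class II transactivator, on a primary chromosome, had 0, 2 and 1 counts, at or under the limit of 3 counts that a count of 0 allows (0.211, 0.221 and 0.216 CPM on day 0, 7 and 14).

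On the class II side, the invariant chain stood apart from the rest. Cd74, on chromosome 18, had 1257 counts on day 0, 270 on day 7 and 351 on day 14. It fell 4.44-fold by day 7 (3.89 to 5.08) and was 3.50-fold lower on day 14 (3.10 to 3.95), with day 14 above day 7 by 1.27-fold (1.08 to 1.49). Per unit of length it was second only to B2m among the 15 genes on day 0, at a deposited FPKM of 67.2, and reached 13.6 and 17.2 on the later days. The 6 class II chain genes, H2-Aa, H2-Ab1, H2-Eb1, H2-Eb2, H2-Ea-ps and H2-Pa, were listed at 0, 5 of them on scaffolds.

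H2-DMb1, a chain of the H2-M dimer that loads class II peptides, had 32, 70 and 62 counts, the reverse order to Cd74. It rose 2.30-fold by day 7 (1.49 to 3.61) and stood 1.98-fold higher on day 14 (1.28 to 3.14), short of the rule. Unlike Cd74, H2-DMb1 is listed on a scaffold, with a span of 70185 bases against 7159 in GENCODE, so its level is uncertain. The gene shares 22.7% of its windows with H2-DMb2 (0, 0 and 2 counts), and its partner chain H2-DMa had 2, 2 and 1.

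Markers of immune cells, which make Cd74 in quantity, were read beside it. Of 20 markers of antigen presenting and other immune cells, 11 were at 0 in every library, among them Adgre1, Itgam, Cd3e and Ms4a1, and Ptprc had 1, 0 and 0 counts. The 20 summed to 38.1 CPM on day 0, 25.4 on day 7 and 23.2 on day 14, most of it Zbtb46 with 453, 295 and 268 counts. Without Zbtb46, left out after its values were seen, the sum was 6.26, 3.61 and 3.89 CPM. Cd68 had 55, 39 and 33 counts and Fcer1g 19, 6 and 17. Lyz2, the lysozyme gene of myeloid cells, had 10, 0 and 0. The sum was highest on day 0, as Cd74 was, and its part in the Cd74 result was not tested. In bulk RNA, fewer cells of a kind and less RNA per cell cannot be told apart.

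Cd1d1 (chr3:86995834-86999340, minus strand), the CD1 heavy chain that shows lipids to natural killer T cells, had 44, 21 and 30 counts. It was 1.997-fold lower on day 7 (1.16 to 3.53), just short of the rule, and 1.43-fold lower on day 14 (0.880 to 2.36). Its near copy Cd1d2, which holds 19.1% of its windows, had no count.

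The other members had too few counts to compare. H2-T10 had 8, 2 and 2 counts, H2-T24 6, 1 and 1, H2-M5 2, 1 and 2 and H2-M3 2, 0 and 3. H2-M10.5 had 0, 1 and 1, and the pseudogene H2-M6-ps 1, 0 and 1. H2-Ke6, with 1, 0 and 3, is matched by name only and encodes a steroid dehydrogenase. The 38 without a count were 21 heavy chains, 7 pseudogenes or fragments, the 6 class II chains, H2-Oa, H2-Ob, Psmb8 and Psmb9.

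By deposited FPKM, which accounts for length, the 6 highest members on day 0 were B2m (254), Cd74 (67.2), Psme1 (44.0), Psme2 (26.7), Erap1 (13.0) and H2-T22 (10.49). On day 14 they were B2m (481), Psme1 (26.1), Cd74 (17.2), Psme2 (13.1), H2-K1 (10.36) and H2-T22 (8.72). Erap1 stood above Psmb10 on day 0 and below it on day 14, at 3.85 against 4.04. With 1 library for each day, the order of neighbours has no spread between samples behind it.

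The rest of the pathway was read from 6 lists holding 86 compared genes. On day 7, 8 were higher and 7 lower (9.30% and 8.14%, against 12.1% and 10.9% of all genes), and on day 14, 5 were higher and 5 lower (5.81% each, against 9.60% and 7.59%). Both shares lay under the background on each day. Their median log2 ratio was -0.11 on day 7 and -0.05 on day 14.

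Among 20 genes of class I loading and trimming, 1 rose and 1 fell on each day, with medians of -0.03 and 0.00. That is 5% in each direction, under the shares of all genes on both days. Lnpep, an aminopeptidase of endosomes related to Erap1, had 6016, 21051 and 16864 counts and rose 3.67-fold (3.57 to 3.78) and 2.87-fold (2.79 to 2.96). Wdfy4, known for cross-presentation in dendritic cells, fell from 36 counts to 2 and 8, 17.2-fold (4.42 to 147) and 4.39-fold lower (2.01 to 10.9). Calr, the chaperone calreticulin of the loading complex, had 14501, 21817 and 18389 counts, 1.58-fold and 1.30-fold higher and within the rule.

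Of 18 constitutive proteasome genes, Psmb6 alone was called against day 0, higher on day 7 (5.56%, against 12.1% of all genes). The list held 0 called lower on day 7, against 10.9%. It held 0 called in either direction on day 14, against 9.60% and 7.59%. The 10, 151 and 4 counts of Psmb6 on a scaffold are uncertain. Psmb5 and Psmb7, the constitutive counterparts of Psmb8 and Psmb10, had log2 ratios of -0.46 and -0.47 on day 7 and -0.44 and -0.46 on day 14. Psmb10, at -1.54 and -0.82, lay below both. The median of the 18 was -0.18 on day 7 and -0.21 on day 14.

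Of 7 MHC class I-like genes, 2 rose and 2 fell by day 7, 28.6% each, against 12.1% and 10.9% of all genes. On day 14, 1 was higher and 2 lower (14.3% and 28.6%, against 9.60% and 7.59%). Fcgrt, the neonatal Fc receptor, had 1339, 2607 and 2084 counts and rose 2.04-fold by day 7 (1.91 to 2.18). Hfe, the haemochromatosis protein, had 45, 96 and 96 counts and rose 2.24-fold (1.56 to 3.27) and 2.18-fold (1.52 to 3.19). With total counts, as with deposited FPKM, Fcgrt on day 7 and Hfe on day 14 were not called; total counts gave log2 ratios of 0.87 in place of 1.03 and 0.87 in place of 1.02. Fcgrt and Hfe pair with beta-2 microglobulin. Raet1d and Raet1e, ligands of the natural killer receptor NKG2D, fell 2.78-fold (2.11 to 3.69) and 2.85-fold (2.28 to 3.59) by day 7 and 2.08-fold and 2.23-fold by day 14, though they belong to a family of near-identical genes whose reads can be split. The list's median log2 ratio was -0.27 on day 7 and -0.02 on day 14.

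Among 29 regulators of MHC transcription, 3 rose and 3 fell by day 7, and 2 rose and 1 fell by day 14, with medians of -0.05 and -0.02. Irf1, an interferon-induced activator of class I genes, had 655, 300 and 302 counts and fell 2.08-fold (1.81 to 2.39) and 2.12-fold (1.85 to 2.44), while Nlrc5 was higher. There were 0.241 Nlrc5 counts for each Irf1 count on day 0, 1 on day 7 and 1.03 on day 14. This ratio restates the changes of both genes and is no separate result. Irf9, part of the factor that binds ISRE, fell 2.28-fold by day 7 (1.75 to 2.98), and Socs1, a brake on interferon signalling, fell 3.01-fold (1.91 to 4.87) from 82 counts.

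Irf2, which shares sites with Irf1, rose 2.24-fold by day 7 (2.002 to 2.51). Jak2, a kinase of the interferon gamma receptor, had 882, 2621 and 3054 counts and rose 3.12-fold (2.89 to 3.37) and 3.55-fold (3.29 to 3.83). Nfkbia, the NF-kappaB inhibitor and target, rose 3.45-fold (3.15 to 3.79) and 2.85-fold (2.59 to 3.14). Rfx5, which binds the X box of MHC promoters, had 659, 733 and 664, at 0.22 and 0.04.

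Of 7 genes of class II processing, Lgmn, an endosomal asparagine endopeptidase, was the member called. That is 14.3% higher on each day, against 12.1% and 9.60% of all genes, and 0% lower, against 10.9% and 7.59%. Lgmn had 2535, 5910 and 5294 counts and rose 2.45-fold (2.33 to 2.56) and 2.14-fold (2.04 to 2.24). With total counts its day 14 log2 ratio was 0.93 in place of 1.09 and it was not called, as with deposited FPKM. The median of the 7 was 0.42 and 0.19. Of 5 costimulatory and checkpoint ligands, Cd274, which encodes PD-L1, fell from 20 counts to 5 and 6. It was 3.81-fold lower on day 7 (1.39 to 13.0) and 3.25-fold lower on day 14 (1.26 to 9.90). That is 20% lower on each day, against 10.9% and 7.59% of all genes, and 0% higher, against 12.1% and 9.60%. The medians were -0.30 and -0.34. Between day 7 and day 14 the 86 genes held 0 called higher and 1, the uncertain Psmb6, called lower. That is 0% and 1.16%, against 2.93% and 2.20% of all genes.

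**Figure D5:**
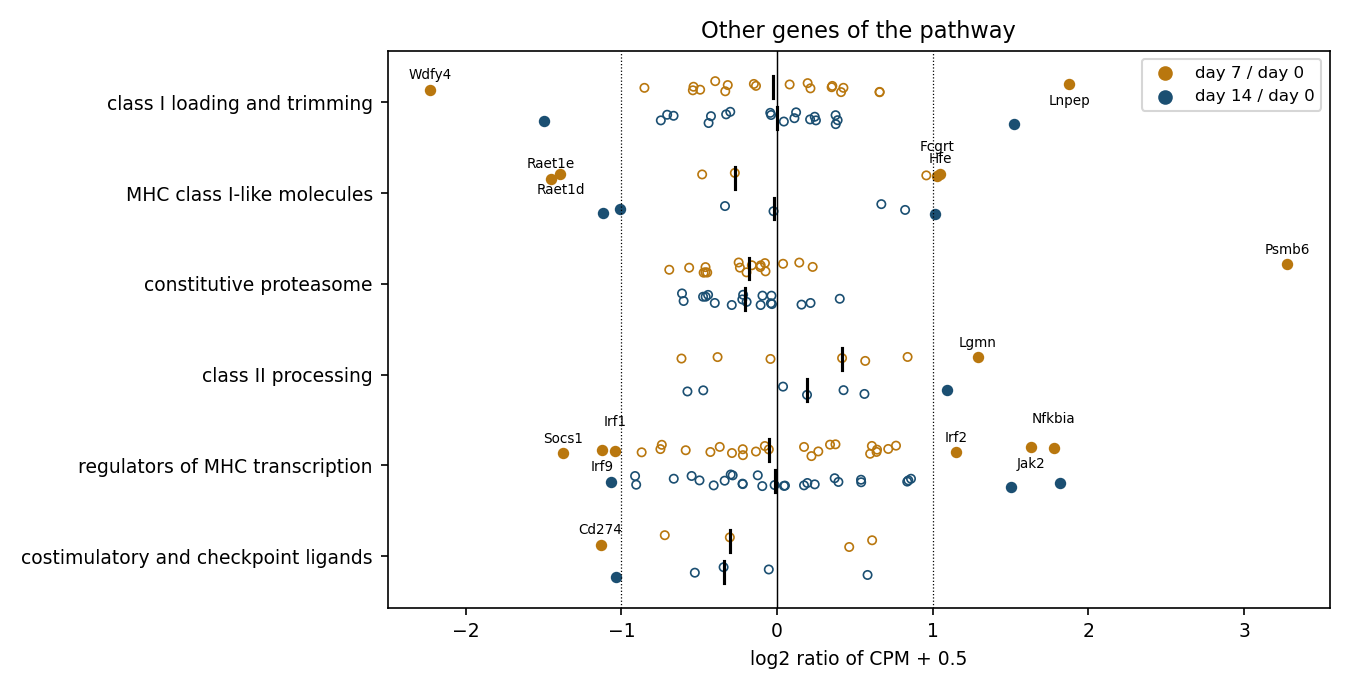
Log2 ratio of CPM + 0.5 for the 86 compared genes of the 6 pathway lists, day 7 against day 0 (ochre) and day 14 against day 0 (blue). Filled points were called, those called on day 7 are named, black bars are list medians, and points are spread vertically for legibility. The medians lie between -0.34 and 0.42, and Lnpep, Jak2 and Nfkbia stand furthest to the right after the uncertain Psmb6.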

How the data were processed

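Total RNA of OCCM-30 cells was sequenced at day 0, 7 and 14, with 1 library for each. The authors deposited raw whole-number counts per gene and FPKM values, the count per listed length and library total. The submitters' processing notes name the mm10 build and the tools DESeq, HTSeq, Cufflinks, TopHat and HISAT2, without roles. Their versions and the strand setting were not given in the sources used here. For 98.8% to 98.9% of detected genes in each library the deposited FPKM equalled the count over listed length and total (relative tolerance 0.001).

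Counts were scaled with TMM (edgeR 4.0.16, R 4.3.3; factors 1.08, 0.966 and 0.962 for day 0, 7 and 14). With 1 library for each group no replicated test was possible. Ratios of scaled counts have an exact Clopper-Pearson 95% interval conditional on the summed count; log2 ratios use CPM plus 0.5, which understates changes of low genes. Called genes have a summed count of 20, a ratio of 2 and an interval without 1. Intervals of a level are exact Poisson. A count of 0 allows up to 3 counts per library. The calling was tested on simulated counts drawn with counting error alone. Such a simulation cannot show how the calls would hold up to variation between cultures.

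Every member with 20 counts or more is described, and the others are counted, with those that have counts named. Of each pathway list, at most 6 called genes with the largest summed count are named, and Irf1, Rfx5, Calr, Psmb5, Psmb6 and Psmb7 always; a further item of this rule is not reported here. Members and lists were chosen with earlier results of these data known. Close paralogues share 5% or more of 50-base windows with another GENCODE gene. Promoters are RefSeq, from 250 bases before to 50 after the start site. The alternatives tried were total counts, size factors of DESeq2 1.42.0, deposited FPKM and other minimums (1 CPM or none). Thresholds of 1.5-fold and 4-fold and pseudocounts of 0.1 and 2 CPM were also tried. A further setting left out the close paralogues among H2 genes and kept Psme1, Psme2 and Cd1d1, which are also close paralogues. Primary chromosomes alone were a setting chosen after seeing the data. Computation used scipy 1.17.1, pandas 2.3.3, numpy 2.4.6 and matplotlib 3.10.9 under Python 3.11.15.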

Additional observations from a re-analysis of the deposited data

How the results depend on the processing

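No paired analysis was possible because each day has 1 library, and no library could be left out. No called log2 ratio of a compared gene reversed, while H2-T22 on day 7, not called, went from 0.13 to -0.02 with total counts and with deposited FPKM. With DESeq2 size factors 44 of the 45 log2 ratios kept their side of the 2-fold rule and 1, Cd1d1 on day 7, passed it. With total counts, or with deposited FPKM, 39 kept their side, 4 passed it (Psme1 and Cd1d1 on day 7, Psme2 and Psmb10 on day 14) and 2, B2m and Nlrc5 on day 14, no longer did. Total counts moved the median of all genes by -0.152 on day 7 and -0.157 on day 14, and the split of all called genes from 1885 higher and 1694 lower to 1579 and 2123 on day 7, and from 1491 and 1179 to 1236 and 1526 on day 14. Members called higher on day 7 numbered 1, and 0 at 4-fold, 4 at 1.5-fold, 0 without close H2 paralogues and 0 on primary chromosomes alone. Those called lower numbered 5, and 7 with total counts, FPKM or 1.5-fold and 2 at 4-fold. With DESeq2 size factors they numbered 6, where 1738 of all genes were lower. On day 14, 2 were higher, and 0 with total counts, FPKM or 4-fold and 4 at 1.5-fold; 3 were lower, and 5 with total counts or FPKM, 0 at 4-fold and 6 at 1.5-fold. Between day 7 and day 14 the members called were 0, and at 1.5-fold 2 higher and 1 lower. For the pathway lists, 8 were higher on day 7, and 7 with total counts or FPKM, 1 at 4-fold and 18 at 1.5-fold. On that day 7 were lower, and 9 with total counts or FPKM, 1 at 4-fold and 15 at 1.5-fold. On day 14, 5 were higher, and 3 with total counts or FPKM, 0 at 4-fold and 10 at 1.5-fold. On that day 5 were lower, and 7 with total counts, 8 with FPKM, 1 at 4-fold and 12 at 1.5-fold. Between day 7 and day 14, 1 was higher at 1.5-fold or with FPKM. No share of all genes at 1.5-fold, at 4-fold or with FPKM is given. The counts of members and of list genes in those settings therefore cannot be set against a background. Without close paralogues the class I heavy chain sum was 0.703, 0.221 and 0.504 CPM, since the 4 compared heavy chains are all close paralogues. Genes under 20 counts, and genes of the scaffolds, were limited by depth and by location.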
